A study of Mus musculus with 4 samples.

Results

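The aldo-keto reductases described here are 10 genes of the 22458 gene symbols in the expression table of the series: Akr1b3, Akr1b7, Akr1b8, Akr1b10, Akr1c12, Akr1c13, Akr1c14, Akr1c19, Akr1e1 and Akr7a5. They were chosen by name from the family with their levels in these same libraries already known, so their levels and changes are given as a description of the comparison between the genotypes. All 10 had a row in the table, and all 10 passed the filter of a mean of at least 1 FPKM (a level of RNA scaled to transcript length and library size).

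Aldo-keto reductases are mostly cytosolic enzymes that use NADPH, and in some members NADH, to reduce aldehydes and ketones to alcohols. The AKR1B branch holds aldose reductase and its relatives, which act on glucose, retinal and reactive lipid aldehydes, and the mouse AKR1C branch holds hydroxysteroid dehydrogenases that also oxidise or reduce foreign alcohols and carbonyls. In the intestinal epithelium these enzymes are known for clearing aldehydes that come from the diet and from lipid peroxidation.

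The libraries were made from adult jejunal epithelium, 2 from mice labelled Hnf4a-/-;Cdx2-/- (below, the labelled double knockouts) and 2 from controls labelled Cre-, which the labels call biological replicates. The strain of all 4 is given as a 129xC57/Bl6xSvJ mix. All animals, controls included, had been given 1 mg of tamoxifen on each of 5 days, and the epithelium was released with EDTA. The sources used here do not give the Cre driver, the deleted exons or the age in weeks. The comparison sets jejunal expression after targeting of both transcription factors against that with Cre absent.

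The libraries summed to between 643708 and 689276 FPKM, and without read counts their depth is unknown. Hnf4a stood at 31.6 and 48.2 FPKM in the labelled double knockouts, against 156 and 202 FPKM in controls. Cdx2 stood at 159.8 and 161 FPKM in the labelled double knockouts, against 70.9 and 65.2 FPKM in controls, which goes against its label. A gene-level value can include exons outside a deleted part, so neither value settles the genotype, and the direction of every result below rests on the labels. The 9 epithelial markers summed to 9551 and 10100 FPKM in the labelled double knockouts, against 7854 and 9711 FPKM in controls, with 1 called higher (Krt19) and 2 called lower. The 2 lower ones were Epcam (526 and 531 FPKM in the labelled double knockouts, 1135 and 1281 FPKM in controls, limma, adjusted p = 0.0300) and Vil1 (508 and 487 FPKM in the labelled double knockouts, 970 and 1024 FPKM in controls, 0.0411). The endothelial list summed to at most 0.447 FPKM and the fibroblast and muscle list to at most 5.09 FPKM. Of 11 leukocyte markers 8 were tested, with 1 called lower. The 11 summed to 61.5 and 176 FPKM in the labelled double knockouts, against 83.2 and 127 FPKM in controls. Of 7 pancreatic acinar markers only 1 passed the filter and was tested, Ctrb1, and it was called higher. The 7 summed to 51.1 and 15.3 FPKM in the labelled double knockouts, against 0.495 and 0.828 FPKM in controls. Of 8 gastric markers 7 were tested, and all 7 were called higher. The 8 summed to 3426 and 1592 FPKM in the labelled double knockouts, against 1.35 and 0.703 FPKM in controls. Muc5ac was at or near 0 in each library. Of 7 enteroendocrine markers 6 were called lower, with a sum of 167 and 128 FPKM in the labelled double knockouts, against 789 and 689 FPKM in controls. Of 6 hepatocyte markers, Ttr made up nearly all of a sum of 145 and 242 FPKM in the labelled double knockouts, against 4.07 and 2.29 FPKM in controls, and Alb, the defining one, did not exceed 0.561 FPKM. Of 8 villus enterocyte markers 2 were called lower. The 8 summed to 47997 and 31788 FPKM in the labelled double knockouts, against 41164 and 44257 FPKM in controls. The crypt, goblet, Paneth and tuft lists had 0 called genes. Paneth markers summed to 29311 and 62989 FPKM in the labelled double knockouts, against 44092 and 36182 FPKM in controls. For crypt markers the sums were 459 and 511 FPKM, against 495 and 250 FPKM. The part of these cell type markers in the aldo-keto reductase levels was not tested. In bulk epithelium, a change in the share of a cell type and a change of RNA per cell cannot be told apart.

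In the labelled double knockouts 6 of the 10 aldo-keto reductases rose (Akr1b8, Akr1b3, Akr1b10, Akr1c13, Akr1c19 and Akr1c12) and 0 fell, with 1 lower at an unadjusted p under 0.05 in limma (Akr7a5). Calls are at an adjusted p under 0.05 in limma, fitted on log2(FPKM + 1) over 10883 genes with Benjamini-Hochberg adjustment. Of all genes tested, 9.57% were called in either direction and 3.77% were called higher. The median log2 fold change of the 10 genes was 1.25, beside 0.02 over all genes tested. Because the genes were chosen with these values known, nothing is read from that contrast. With 1 library left out, 2 of the 10 genes were called without the first labelled double knockout and 1 without each of the other 3 libraries, where the genes called over the whole table numbered 171 to 693 in place of 1041. In the expression table of the series, the labelled double knockouts and the controls did not overlap in any of the 10 genes. The same held for 60.7% of all genes tested. In the values estimated for each library alone, the groups overlapped in Akr1b3 and Akr1e1. Summed over the 10 genes, the level was 1708 and 1443 FPKM in the labelled double knockouts, against 667 and 554 FPKM in controls, and without Akr1b8 it was 1400 and 1137 FPKM, against 655 and 539 FPKM.

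**Figure D1:**
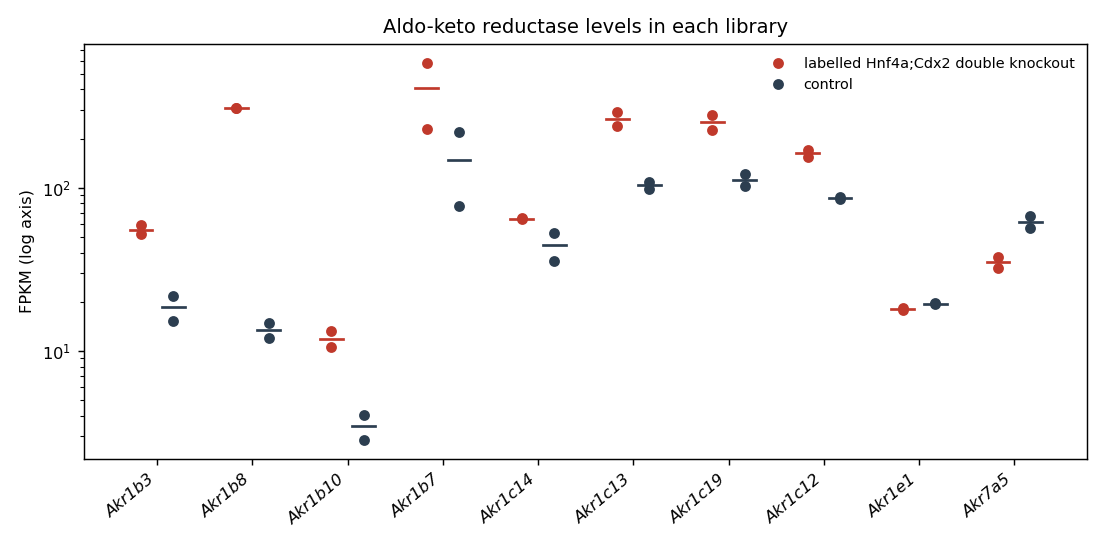
FPKM of each of the 10 aldo-keto reductases in each library on a log axis, with the labelled double knockouts (red) left of the controls (dark blue); points are libraries and short lines are group means of 2. Akr1b8 stands at 308 and 306 FPKM in the labelled double knockouts, far above 11.9 and 14.8 FPKM in controls, and the replicates of Akr1b7 lie far apart in both groups.

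Akr1b8, an aldehyde and retinal reductase first described as a protein induced by fibroblast growth factor and often set beside human AKR1B10, had the greatest change of the family. It stood at 308 and 306 FPKM in the labelled double knockouts, against 11.9 and 14.8 FPKM in controls. Both labelled double knockouts held nearly the same level, and each was far above each control. The group means were 306.8 ± 1.58 and 13.4 ± 2.03 FPKM (SD, n = 2 each), a ratio of 22.9, and the log2 fold change was 4.43 ± 0.17 (standard error from limma, adjusted p = 0.00133). That fold change ranked 21 among the 10883 genes tested. Akr1b8 made up 18.03% and 21.2% of the summed level of the 10 genes in the labelled double knockouts, against 1.79% and 2.67% in controls. It was the only one of the 10 genes whose call held whichever library was left out, with limma adjusted p-values of 0.00857 to 0.0284.

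Akr1b10, an Akr1b gene of the mouse that shares its symbol with the human enzyme, was the scarcest of the 10. It had 13.2 and 10.5 FPKM in the labelled double knockouts, against 4.06 and 2.84 FPKM in controls. The log2 fold change was 1.54 ± 0.22 (standard error from limma, adjusted p = 0.0198), and the ratio of the means was 3.43. Its mean in the labelled double knockouts, 11.9 ± 1.91 FPKM, was close to the control mean of Akr1b8. Leaving out any library ended its call (adjusted p = 0.0575 to 0.0889 in limma).

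Akr1b7, first known as a protein of the mouse vas deferens and linked to the clearance of an aldehyde made in steroid synthesis, was the most abundant of the 10 genes in 1 labelled double knockout and in 1 control. It had 582 and 229 FPKM in the labelled double knockouts, against 219 and 77.7 FPKM in controls. The lower labelled double knockout lay just above the higher control, and the higher replicate was 2.54 times the lower in the labelled double knockouts and 2.82 times the lower in controls. In the other 9 genes that ratio was at most 1.26 in the labelled double knockouts and 1.48 in controls. The log2 fold change was 1.48 ± 0.65 (standard error from limma, adjusted p = 0.220), so an estimate close to that of Akr1b10 was not called. Without the first labelled double knockout it was 0.81 and without the second 2.15, and without the first control it was 2.22 and without the second 0.73. Replicate 1 was the higher in both groups. With the replicate number as a block Akr1b7 was called (limma, adjusted p = 0.0332), though the labels name no pairing of these numbers. Markers of the adrenal cortex, where Akr1b7 is also known, summed to 0.751 and 0.671 FPKM in the labelled double knockouts and 1.61 and 1.07 FPKM in controls, with Nr5a1 and Cyp21a1 at 0 in every library.

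Akr1b3 encodes aldose reductase, which turns glucose into sorbitol in the first step of the polyol pathway. In the table normalized between libraries it had 52.0 and 58.6 FPKM in the labelled double knockouts, against 21.8 and 15.2 FPKM in controls, a log2 fold change of 1.55 ± 0.22 (standard error from limma, adjusted p = 0.0191). The files in which each library was estimated alone gave a different picture. There Akr1b3 had 6.79 and 1.98 FPKM in the labelled double knockouts, against 3.18 and 1.18 FPKM in controls. The groups overlapped, and the gene was not called (log2 fold change 0.67, limma, adjusted p = 0.458).

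The Akr1b3 values of both sources differed more than those of nearly any other gene. The series table was above the library-alone value by 7.66 and 29.6 times in the labelled double knockouts and by 6.86 and 12.8 times in controls, where the median over all genes was 1.06 to 1.32. At most 0.149% of genes in a library had a ratio as high. The library-alone files also list Gm6644, with the estimation status LOWDATA, on chromosome 6 at 34253934 to 34267443 (mm9), wholly inside the Akr1b3 locus (34253930 to 34267489). Gm6644 had 35.3 and 49.4 FPKM in the labelled double knockouts, against 14.6 and 9.55 FPKM in controls, and it has 0 rows in the series table. Summed, Akr1b3 and Gm6644 gave 42.1 and 51.4 FPKM in the labelled double knockouts, against 17.8 and 10.7 FPKM in controls. The series table was 1.14 to 1.42 times that sum, a ratio close to that of other genes. With the sum in place of Akr1b3, the library-alone fit called it at a log2 fold change of 1.68 ± 0.28 (standard error from limma, adjusted p = 0.0261), an alternative added after these values were seen.

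**Figure D2:**
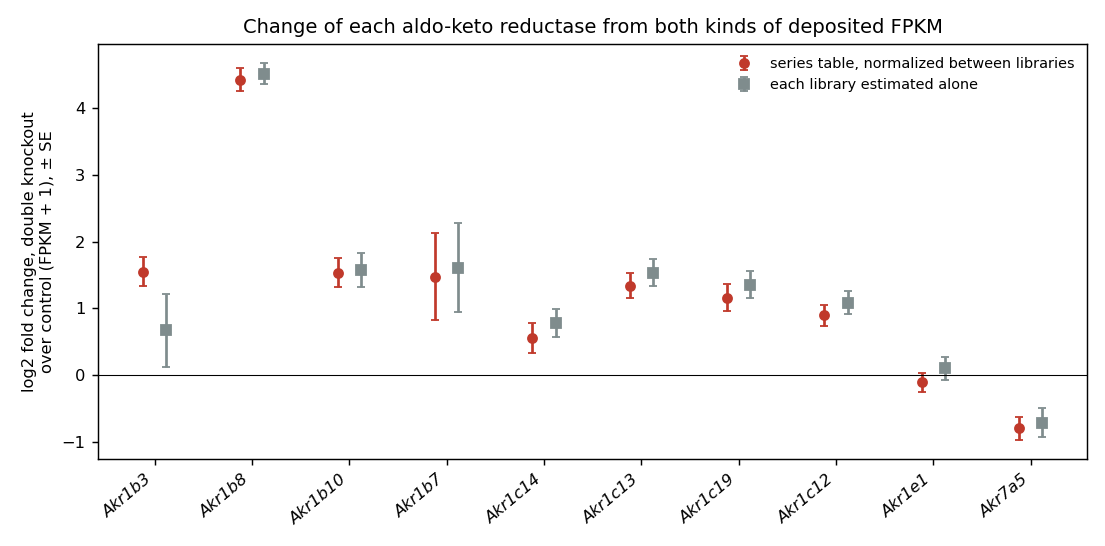
Log2 fold change (labelled double knockout over control, FPKM + 1) with its SE for each gene, from the series table normalized between libraries (red circles) and from the files in which each library was estimated alone (grey squares), 2 libraries a group. Akr1b3 is at 1.55 in the first and 0.67 in the second, while Akr1b8 is at 4.43 and 4.52.

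Sequence sharing was measured because the files do not say how reads that match several genes were counted. For each gene, every run of 75 bases of a GENCODE M21 coding transcript was looked for in the transcripts of all other genes. For Akr1b3, 80.2% of the 1313 runs occurred exactly in another gene's transcript and 97.6% occurred with at most 2 mismatches. The greatest shares with at most 2 mismatches were with Gm38056 (97.6%) and the processed pseudogene Gm6644 (66.8%), both placed by GENCODE on chromosome 1 (GRCm38). That placement conflicts with the chromosome 6 locus of Gm6644 in the library-alone files, so whether the Gm6644 value is RNA of Akr1b3 or of the pseudogene cannot be told from these files. For Akr1c12 and Akr1c13 the shares were 17.3% exact and 47.1% with at most 2 mismatches, all of it with each other. Akr1b7, Akr1b10 and Akr1b8 had 14.5%, 11.6% and 8.96% with at most 2 mismatches and at most 5.30% exact. Akr1e1 had 0.325% with at most 2 mismatches, and Akr1c14, Akr1c19 and Akr7a5 had 0%. The levels of Akr1b3, Akr1c12 and Akr1c13 are therefore uncertain between the copies.

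The first 90 bases of the reading frames of the Akr1b genes are shown because they let a read of Akr1b8 be told from those of its neighbours. They run 5′ to 3′ on the coding strand, from GENCODE M21 transcripts (GRCm38, chromosome 6), and capitals mark bases that differ from Akr1b8.
Akr1b8: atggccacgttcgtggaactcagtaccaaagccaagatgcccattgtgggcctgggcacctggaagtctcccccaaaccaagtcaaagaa
Akr1b10: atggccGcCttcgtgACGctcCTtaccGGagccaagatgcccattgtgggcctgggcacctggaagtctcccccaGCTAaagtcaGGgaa
Akr1b7: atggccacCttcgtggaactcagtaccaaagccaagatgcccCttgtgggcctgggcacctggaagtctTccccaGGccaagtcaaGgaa
Akr1b3: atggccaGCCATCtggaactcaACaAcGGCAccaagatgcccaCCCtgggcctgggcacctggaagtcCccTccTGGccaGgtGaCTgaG

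In that stretch Akr1b10 differs from Akr1b8 at 15 bases, Akr1b7 at 6 and Akr1b3 at 26. Over the whole reading frame of 948 bases, the aligned identity to Akr1b8 was 85.1% for Akr1b10, 85.0% for Akr1b7 and 72.1% for Akr1b3, and Akr1b7 and Akr1b10 shared 89.2%. Akr1b7 and Akr1b10, the closest pair of the 4 in sequence, differed widely in level, with control levels of 219 and 77.7 FPKM and of 4.06 and 2.84 FPKM.

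Among the Akr1c genes, Akr1c13 and Akr1c12 encode hydroxysteroid dehydrogenases that also act on foreign alcohols and that are known from the mouse stomach and liver. Akr1c13 had 237 and 291 FPKM in the labelled double knockouts, against 98.7 and 107.7 FPKM in controls. Akr1c12 had 170.0 and 154 FPKM in the labelled double knockouts, against 87.5 and 85.3 FPKM in controls. In both genes the replicates lay close together and the groups were well apart. The log2 fold changes were 1.34 ± 0.19 for Akr1c13 and 0.90 ± 0.16 for Akr1c12 (standard error from limma, adjusted p = 0.0182 and 0.0342). The ratio of the means was 2.56 for Akr1c13 and 1.87 for Akr1c12. The controls held Akr1c13 slightly above Akr1c12, and the labelled double knockouts held it higher by a wider margin. The call of Akr1c13 was kept without the first labelled double knockout (limma, adjusted p = 0.0368) and lost without any of the other 3 libraries (0.0646 to 0.0908), and that of Akr1c12 was lost in all 4 such fits (0.0917 to 0.136). Since both genes are also known from stomach, the gastric marker sums given above stand beside them, and their part in these levels was not tested.

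Akr1c19, a related dehydrogenase of the mouse gut and liver, stood close to Akr1c13 in level and in size of change. It had 225 and 279 FPKM in the labelled double knockouts, against 101.8 and 122 FPKM in controls. The log2 fold change was 1.16 ± 0.20 (standard error from limma, adjusted p = 0.0329). No run of 75 bases of its transcript occurred in another gene's transcript with at most 2 mismatches. None of the 4 fits with a library left out called it (adjusted p = 0.0567 to 0.119 in limma).

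Akr1c14 encodes a 3-alpha-hydroxysteroid dehydrogenase that inactivates dihydrotestosterone. It had 64.7 and 63.9 FPKM in the labelled double knockouts, against 35.7 and 52.8 FPKM in controls. The labelled double knockouts were nearly equal and above both controls, whose spread was wider. The log2 fold change was 0.56 ± 0.23 (standard error from limma, adjusted p = 0.192), so no change was called.

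The starts of the Akr1c reading frames are shown because they set the near-identical pair beside its relatives. They run 5′ to 3′ on the coding strand, from GENCODE M21 transcripts (GRCm38, chromosome 13), and capitals mark bases that differ from Akr1c13.
Akr1c13: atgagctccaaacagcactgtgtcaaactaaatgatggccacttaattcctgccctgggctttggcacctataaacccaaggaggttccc
Akr1c12: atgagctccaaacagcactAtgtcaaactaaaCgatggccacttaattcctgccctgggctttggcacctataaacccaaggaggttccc
Akr1c19: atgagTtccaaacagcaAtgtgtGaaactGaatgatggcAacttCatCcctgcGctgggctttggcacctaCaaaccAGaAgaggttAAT
Akr1c14: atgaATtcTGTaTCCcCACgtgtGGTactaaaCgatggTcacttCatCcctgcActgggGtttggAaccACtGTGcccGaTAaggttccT

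Here Akr1c12 differs from Akr1c13 at 2 of 90 bases, Akr1c19 at 15 and Akr1c14 at 30. Over the whole reading frame of 969 bases, Akr1c12 and Akr1c13 shared 96.2% of aligned positions. Akr1c13 shared 77.9% with Akr1c19 and 73.0% with Akr1c14.

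The likeness of Akr1c12 and Akr1c13 extends to their promoters, which are shown because both genes, members of one cluster, were called higher. The 250 bases before each start site, from RefSeq (GRCm38.p6), run 5′ to 3′ on the strand of the gene. Akr1c12 lies on the minus strand at chr13:4279400-4279649 and Akr1c13 on the plus strand at chr13:4190937-4191186, and capitals mark bases with no identical partner in the alignment of the pair.
Akr1c12: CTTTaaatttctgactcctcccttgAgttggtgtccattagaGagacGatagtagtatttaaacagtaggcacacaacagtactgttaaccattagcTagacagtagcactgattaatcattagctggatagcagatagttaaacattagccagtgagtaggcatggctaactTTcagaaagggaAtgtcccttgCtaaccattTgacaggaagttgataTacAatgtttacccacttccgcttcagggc
Akr1c13: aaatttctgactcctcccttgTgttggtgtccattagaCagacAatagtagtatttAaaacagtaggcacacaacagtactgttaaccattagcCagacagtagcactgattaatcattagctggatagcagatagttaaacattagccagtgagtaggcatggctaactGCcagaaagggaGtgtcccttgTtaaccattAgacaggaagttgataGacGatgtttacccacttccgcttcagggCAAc

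The aligned identity of these promoters was 92.5%, with 15 unmatched bases in each. The next closest pair of promoters, Akr1c13 and Akr1c19, shared 59.0%. Windows of 300 bases (250 before and 50 after the start) were found in RefSeq for 9 of the 10 genes, and 3 motifs were searched on both strands: TGACNNNGC of the antioxidant response element, CAAAGTCCA of HNF4 sites and TTTATNG of CDX sites. The first was found in Akr1c19, 8 bases after the start on the opposite strand, and it occurs in 12.4% of all 32851 windows. The CDX letters were found in Akr1b7, 198 bases before the start, and in Akr1c14, 155 bases before it, and they occur in 10.9% of windows. The HNF4 letters were in none of the 9 windows and in 0.475% of all windows. These matches describe the letters in the windows only.

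The remaining genes moved little or were lower. Akr7a5 (chromosome 4, 138866659 to 138874701, mm9), a reductase of succinic semialdehyde and aflatoxin dialdehyde, had 37.6 and 32.3 FPKM in the labelled double knockouts, against 66.5 and 56.4 FPKM in controls. Both labelled double knockouts lay below both controls, at a log2 fold change of -0.80 ± 0.18 (standard error from limma, adjusted p = 0.0574) that was not called. With a robust variance model its limma adjusted p was 0.0494. Akr1e1, which reduces an anhydro sugar, anhydrofructose, had 17.7 and 18.3 FPKM in the labelled double knockouts, against 19.6 and 19.3 FPKM in controls, a log2 fold change of -0.11 ± 0.14 (standard error from limma, adjusted p = 0.669). Its replicates were the tightest of the 10 genes in controls, and its sign turned with the library-alone values (0.10). There its groups overlapped, at 14.4 and 15.7 FPKM in the labelled double knockouts, against 14.7 and 13.3 FPKM in controls.

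All of the 10 genes but Akr7a5 lie in 2 clusters, and neighbours within them differed. The Akr1b cluster spans 119 kb of chromosome 6 (34253930 to 34373137, mm9) and holds Akr1b3, Akr1b8 (34304164 to 34318454), Akr1b10 (34334247 to 34346949) and Akr1b7 (34362362 to 34373137) in that order. All 4 had positive log2 fold changes, of 1.55, 4.43, 1.54 and 1.48, while the flanking genes Slc35b4 and Bpgm had 0.38 and 0.16 (limma, adjusted p = 0.246 and 0.548). The Akr1c cluster spans 550 kb of chromosome 13 (4058837 to 4608410, mm9) and holds 9 aldo-keto reductases, 5 of them among the 10 genes: Akr1c14 (4058837 to 4089668), Akr1c13 (4190433 to 4204849), Akr1c19 (4232986 to 4247605), Akr1c12 (4267418 to 4278645) and Akr1e1 (4591736 to 4608410). Akr1c14, Akr1c13, Akr1c19 and Akr1c12 stood between 35.7 and 291 FPKM in every library, and Akr1e1 at the far end between 17.7 and 19.6 FPKM. Akr1c6 and Akr1c20 between them were listed at 0 in every library, Akr1c18 reached 0.0780 FPKM in 1 labelled double knockout only, and Akr1c21 was listed at 0 in the labelled double knockouts, against 0.147 and 0.143 FPKM in controls. Marcksl1-ps4, by its symbol a pseudogene, lies inside this cluster. It had 29.4 and 32.9 FPKM in the labelled double knockouts, against 24.5 and 18.2 FPKM in controls. Its log2 fold change was 0.54 (limma, adjusted p = 0.161), close to that of Akr1c14. The sequence it shares with other genes was not measured, so its level is uncertain. The flanking genes Ucn3 and 1700016G22Rik did not exceed 0.676 FPKM and were not tested.

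**Figure D3:**
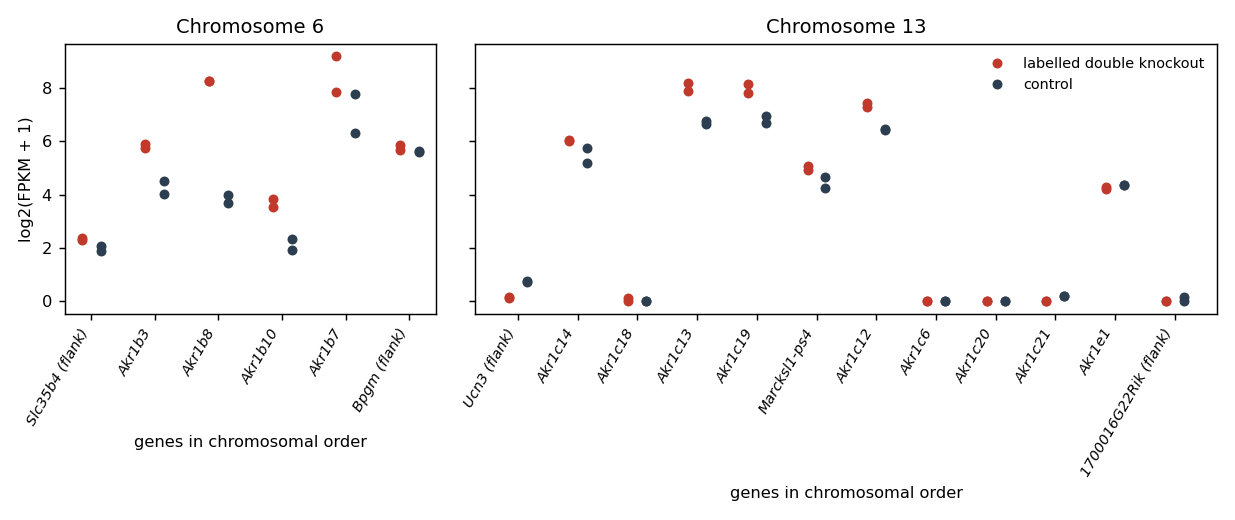
Level as log2(FPKM + 1) of each gene in the Akr1b cluster (left) and the Akr1c cluster (right), in chromosomal order with the gene flanking each end; red points are the labelled double knockouts and dark blue points the controls. Akr1b8 has the widest gap between the groups, and Akr1c18, Akr1c6, Akr1c20 and Akr1c21 lie near 0 between neighbours at 17.7 to 291 FPKM.

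Outside these 10, 10 other genes of the superfamily were in the table, and only Akr1a1 passed the filter. Akr1a1, the general aldehyde reductase that also serves vitamin C synthesis in mice, was more abundant in controls than any of the 10. It had 538 and 509 FPKM in the labelled double knockouts, against 612 and 658 FPKM in controls, a log2 fold change of -0.28 ± 0.19 (standard error from limma, adjusted p = 0.384). Both labelled double knockouts lay below both controls, by less than the call required. Akr1cl was listed at 0 in every library, Akr1d1, the steroid 5-beta-reductase, reached 0.0302 FPKM in 1 labelled double knockout, and the potassium channel beta subunits Kcnab1, Kcnab2 and Kcnab3 did not exceed 0.341 FPKM.

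Other enzymes of aldehyde, ketone and steroid metabolism were called in both directions. Of 15 aldehyde dehydrogenases tested 1 rose and 2 fell, with a median log2 change of -0.41 over the list. Aldh1b1, a mitochondrial enzyme of acetaldehyde oxidation, fell to 31.2 and 62.4 FPKM in the labelled double knockouts, against 292 and 232 FPKM in controls (limma, adjusted p = 0.0196). Aldh3b1 fell to 10.3 and 10.4 FPKM, against 25.8 and 27.2 FPKM in controls, and Aldh3b2 rose to 2.08 and 1.76 FPKM, against 0.226 and 0.476 FPKM (limma, adjusted p = 0.0120 and 0.0470). The call of Aldh3b2 was lost in all 4 fits with a library left out (0.105 to 0.124), and also with a pseudocount of 0.1 (0.0599), quantile normalization (0.0501) or the replicate block (0.102). Of 4 alcohol dehydrogenases tested 1 fell and 0 rose, with 3 lower and 0 higher at an unadjusted p under 0.05 in limma and a median of -1.82. That median turned on Adh6a, chosen here after its values were seen, which had 0.0664 and 53.9 FPKM in the labelled double knockouts, against 32.2 and 72.5 FPKM in controls. Without the first labelled double knockout the median was -0.77, and without the second -2.80. Adh4, an enzyme of ethanol and retinol oxidation, had 0.0681 FPKM in 1 labelled double knockout and was listed at 0 in the other, against 23.0 and 27.4 FPKM in controls (limma, adjusted p = 0.00133).

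Of 16 carbonyl reductases of other families and polyol pathway genes tested 1 rose and 3 fell, with a median of -0.0032. Cbr3, a carbonyl reductase of the short-chain dehydrogenase family, rose to 53.2 and 57.9 FPKM in the labelled double knockouts, against 1.07 and 6.49 FPKM in controls (limma, adjusted p = 0.0254). Khk, the ketohexokinase that phosphorylates fructose, fell to 207 and 126 FPKM, against 420 and 426 FPKM in controls, and Dhrs11, a steroid carbonyl reductase, fell to 98.8 and 71.1 FPKM, against 188 and 185 FPKM (limma, adjusted p = 0.0477 and 0.0392). Dcxr, an L-xylulose reductase also named after its values were seen, fell to 14.2 and 10.5 FPKM, against 28.6 and 23.5 FPKM in controls (limma, adjusted p = 0.0489). Sord, the next enzyme of the polyol pathway after aldose reductase, had 239 and 90.5 FPKM in the labelled double knockouts, against 88.6 and 187 FPKM in controls, with overlapping groups. It too was chosen after its values were seen. Of 14 hydroxysteroid dehydrogenases and steroid reductases tested 1 rose and 1 fell, at a median of -0.12. Rdh7, which oxidises retinol and hydroxysteroids, rose to 243 and 253 FPKM in the labelled double knockouts, against 109.8 and 71.5 FPKM in controls. Hsd17b4, a peroxisomal enzyme of fatty acid oxidation, fell to 48.4 and 42.1 FPKM, against 161 and 126 FPKM (limma, adjusted p = 0.0308 and 0.0137). With a filter of any mean above 0, Cbr3, Khk, Dhrs11 and Rdh7 were not called (limma, adjusted p = 0.0601, 0.0838, 0.0646 and 0.0578). The other carbonyl reductases then had 0 called genes in place of 4. Khk and Dhrs11 were not called with the replicate block (0.0633 and 0.0615), nor Cbr3 with the robust variance model (0.0551). Adh4, Aldh1b1, Aldh3b1 and Hsd17b4 kept their calls in all 11 alternatives other than leaving out a library. With a library left out, Adh4 kept its call in all 4 fits, Aldh1b1 and Cbr3 in 2, Aldh3b1, Khk, Dhrs11 and Hsd17b4 in 1, and Rdh7 and Dcxr in 0. The list medians moved too: that of the aldehyde dehydrogenases ranged from -0.48 to -0.02, that of the other carbonyl reductases from -0.31 to 0.20 and that of the hydroxysteroid dehydrogenases from -0.33 to -0.0099.

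The supply of NADPH and the NRF2 pathway, a transcription factor pathway known to induce several aldo-keto reductases, were read from 2 further lists. Of 11 NADPH supply genes 0 were called by limma, with 1 higher and 1 lower at an unadjusted p under 0.05 and a median of 0.30 (0.14 to 0.27 with a library left out), with 9 of the 11 estimates positive. The most abundant by its mean over the 4 libraries was Taldo1 of the pentose phosphate pathway, 1 of the 2 with a negative estimate. It had 257 and 261 FPKM in the labelled double knockouts, against 434 and 424 FPKM in controls (limma, adjusted p = 0.0641). Idh1, the cytosolic isocitrate dehydrogenase, was higher than Taldo1 in both labelled double knockouts, at 393 and 275 FPKM, against 199 and 243 FPKM in controls (limma, adjusted p = 0.209), and was chosen after its values were seen. Of 16 genes of the NRF2 list 0 rose and 1 fell. Of all genes tested, 3.77% were called higher and 9.57% in either direction. At an unadjusted p under 0.05 in limma, 1 of the 16 was higher and 3 were lower. Their median was 0.06 (-0.11 to 0.12 with a library left out). The list is a selection, and the part of the NRF2 pathway in the aldo-keto reductase levels was not tested. Gclm, the modifier subunit of glutathione synthesis, fell to 47.6 and 46.5 FPKM, against 80.6 and 94.2 FPKM in controls (limma, adjusted p = 0.0387). That call was lost in all 4 fits with a library left out (0.0897 to 0.142), with a filter of any mean above 0 (0.0513), with library-alone values (0.0653) and with the replicate block (0.0801). Nqo1, a classical NRF2 target chosen after its values were seen, had 38.3 and 66.1 FPKM in the labelled double knockouts, against 24.4 and 43.3 FPKM in controls (limma, adjusted p = 0.352).

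**Figure D4:**
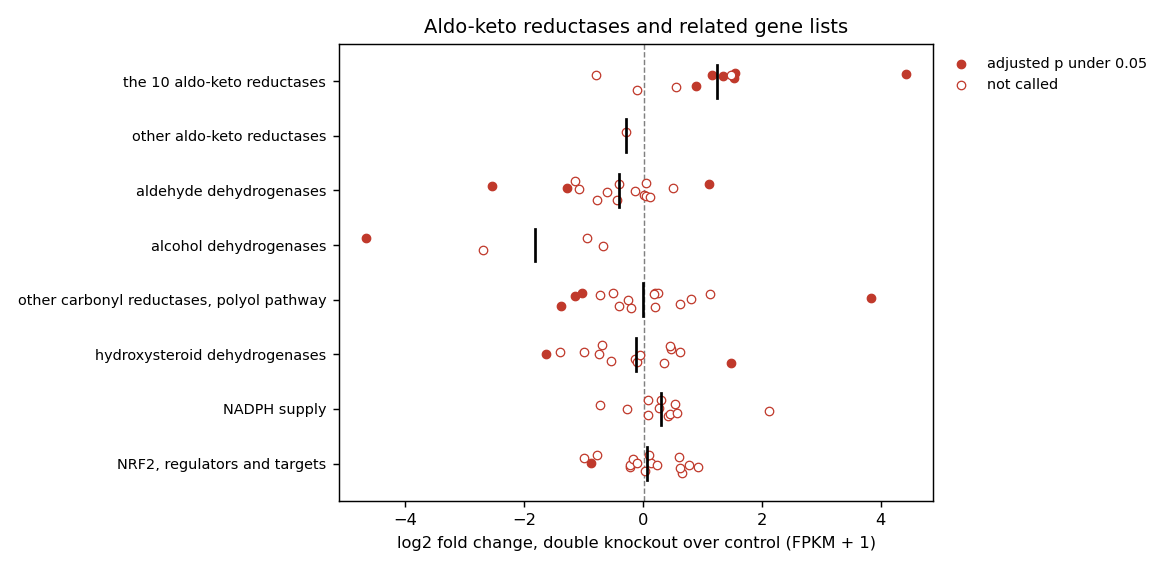
Log2 fold change (labelled double knockout over control, FPKM + 1) of each tested gene of the 10 aldo-keto reductases and 7 related lists; filled points have a limma adjusted p under 0.05, black bars are list medians and the dashed line is the median of all genes tested. The aldo-keto reductases have 6 filled points, all on the right at 0.90 to 4.43, and 2 open points at negative values. The aldehyde dehydrogenases, other carbonyl reductases and hydroxysteroid dehydrogenases have filled points on both sides. Because the 10 genes were chosen with these values known, nothing is read from that contrast.

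The authors' deposited table of the comparison calls 8 of the 10 genes, at a q under 0.05, and 13.2% of the 11594 genes with a test there. It adds Akr1b7 (349 FPKM in the knockout and 130 in the control, q = 0.00354) and Akr7a5 (35.5 and 64.4 FPKM, q = 0.0474) to the 6 called here. In the authors' deposited table Akr1c14 (62.2 and 42.3 FPKM, q = 0.294) and Akr1e1 (17.6 and 18.6 FPKM, q = 0.943) are not called. That table rests on the same libraries.

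**Figure D5:**
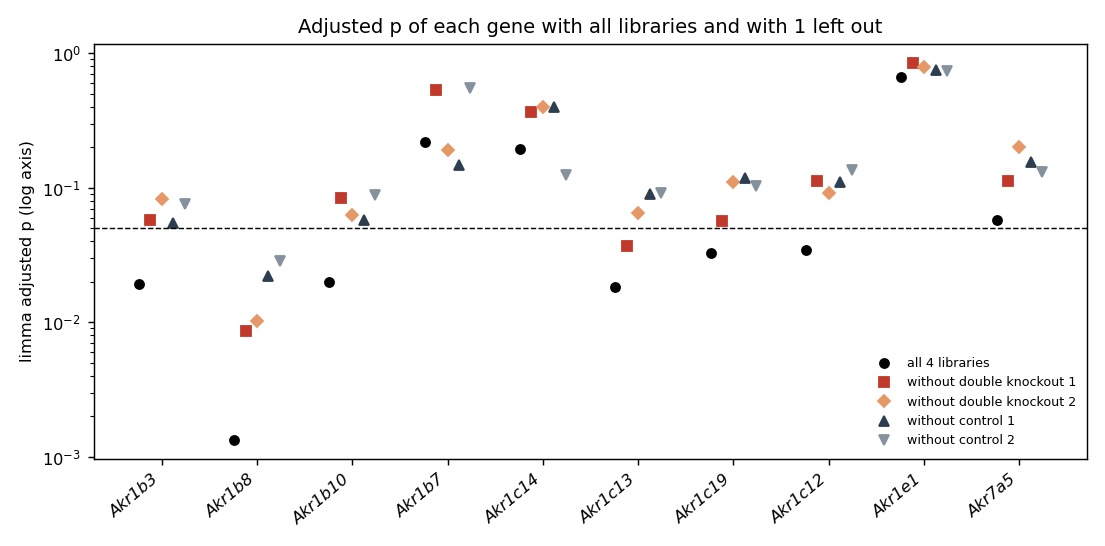
Limma adjusted p (log axis) of each gene with all 4 libraries and with each library left out; the dashed line is 0.05. Akr1b8 stays below the line in each fit, at 0.00857 to 0.0284 with a library left out, and Akr1c13 does so in 1 such fit, at 0.0368.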

How the data were processed

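RNA was measured in 4 libraries, grouped by their titles. Per the submitters' processing notes, TopHat2 2.0.9, Cufflinks 2.1.1, Cuffnorm, Cuffdiff and build mm9 were used, without roles. The series table (23735 rows, 1 column for each library) states no unit, and its values were read as the authors' FPKM after normalization between libraries. Per the file headers, 1 file per library holds FPKM estimated for that library alone, and a comparison table holds group FPKM, p-values and q-values. Loci are given with the start counted from 1. The sources used here do not say how strand or multiply matching reads were treated, and without counts depth is unknown and no counting error can be given.

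Rows of 147 repeated symbols were summed and 1034 short RNA symbols left out. A gene was tested if its 4 libraries averaged 1 FPKM or more (10883 genes). The fit used limma 3.58.1 in R 4.3.3 on log2(FPKM + 1), with an intensity trend, two-sided and Benjamini-Hochberg adjusted. The procedure was first tried on simulated data with the same spread in every gene. That trial does not cover genes that differ in spread. Fold changes on this scale understate those of low genes. An exact permutation test of 2 against 2 libraries cannot give a p under 0.333. The series' design text calls the replicates independent. The 10 genes and all lists were chosen with earlier results of these data known. Besides the 10, the genes named were the rest of the superfamily and, per list, the 2 called genes with the greatest change in each direction, or the most abundant over the 4 libraries where none was called. Dcxr, Sord, Nqo1, Idh1, Adh6a and the markers named lie outside this rule and were picked with their values known. Marcksl1-ps4 and the genes flanking the clusters also lie outside it and were named for their position. Alternatives changed the pseudocount, filter, scaling, source of the values and variance model, added a replicate block and left out each library. Coding transcripts from GENCODE M21 with the longest reading frame were aligned with Biopython 1.88.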

Additional observations from a re-analysis of the deposited data

How the results depend on the processing

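With 11 alternatives other than leaving out a library, Akr1b8 and Akr1c13 kept their calls, and Akr1e1 turned sign in the fits on library-alone values (log2 fold change 0.10 in both). The number of the 10 genes called was 6 here and 4 to 7 in those alternatives, and 1 to 2 with a library left out. Akr1b10 and Akr1c19 were not called with a filter of any mean above 0 (limma, adjusted p = 0.0527 and 0.0548), where the related lists had 5 called genes in place of 11. Over all genes, 1041 were called here, and 171 without the first control, 176 without the second, 693 without the first labelled double knockout and 507 without the second. With a library left out the related lists had 2 to 8 called genes. Library-alone values moved the median of all genes to 0.17 from 0.02 and the calls to 482 higher and 451 lower, against 410 and 631. With the replicate number as a block, 786 genes were called, Akr1b7 was called (limma, adjusted p = 0.0332) and Akr1c12 was not (0.0782). The labels name no pairing of the replicate numbers. Across genes, the difference between replicates 1 and 2 correlated at r = -0.0048 between the groups. That value shows no common shift across the genes, and it cannot tell whether samples with the same number were matched. Depth is unknown, and 2 libraries a group limit the precision.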
